A study of Mus musculus with 80 samples.

Results

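The feeding of a Western diet was set against exposure to a mixed radiation field in the left ventricle, the main pumping chamber of the heart, in C57Bl/6J mice. The Western diet libraries came from male and female mice given that diet and a sham exposure of 0 cGy, and the mixed field libraries came from male and female mice on the normal diet exposed at 50 cGy to a field labelled Mix. The libraries were chosen by their labels for diet, field and dose, which gave 20 Western diet and 20 mixed field libraries, 10 of each sex, and so 40 of the series' 80 libraries. A further 20 libraries from mice on the normal diet with sham exposure (0 cGy) are used here only to place each side, and the remaining group received gamma rays at 100 cGy on the normal diet. The labels do not name the particles of the mixed field, and they give no age, length of feeding, time since exposure or hour of collection. Diet and field both differ between the groups, so the direct comparison alone does not separate them; each group's values against the sham libraries, which differ from it by diet or by field alone, are given beside it. The labels also do not state that each library came from its own animal, so each p-value rests on the spread among libraries, which may be technical. Within each sex the sample titles carry numbers from 1 to 40, and each group of 10 has 5 libraries with numbers 1 to 20 (the first number set) and 5 with numbers 21 to 40 (the second number set). Nothing in the labels says what the numbers mark.

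A Western diet is rich in fat, and the heart, which draws most of its energy from fatty acids, answers a rise in fatty acid supply largely through the nuclear receptor PPAR alpha and its target genes. Ionizing radiation breaks DNA, which activates the damage kinases and the transcription factor p53. DNA fragments that reach the cytosol can also start an interferon response, in which transcription factors bind short GAAA-rich elements in the promoters of antiviral genes and of genes that load peptides on MHC class I molecules.

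The 40 libraries held between 13485000 and 19613000 counts, with a median of 16361000. All 10 cardiomyocyte markers had counts in each of the 4 groups, and their summed level lay between 49040 and 77882 CPM (counts scaled to the library size) in single libraries. Differences are given as log2 of the Western diet level over the mixed field level, with the standard error (SE), from edgeR's quasi-likelihood test with Benjamini-Hochberg adjustment over the 15205 genes tested. The number set was a term for each sex, and a gene is called at an adjusted p under 0.05. CPM levels use TMM-scaled library sizes and serve to compare libraries, not genes of different length. Libraries stood apart in atrial RNA, and also in the levels of a ribosomal RNA copy and of Malat1, which are given further below. Of the 40, 8 male libraries had over 10 CPM of the atrial gene Myl7, 5 on the Western diet (all in the first number set) and 3 under the mixed field. So did 6 of the 10 male sham libraries, at 64.4 to 194 CPM, 5 of them in the first set. Several results of the averaged, male and sham comparisons are given without these libraries too. For the comparisons with sham, this alternative was chosen after the values were seen. Values within each number set were not fitted without them, and in the first set no male Western diet library would remain. In whole tissue, fewer cells of a type and less RNA per cell cannot be told apart.

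Averaged over the sexes, edgeR called 0 of 15205 genes (0%) between the Western diet and the mixed field. At an unadjusted p under 0.05 there were 1512 genes, of which 735 (4.83% of those tested) were higher and 777 (5.11%) were lower on the Western diet. The median difference over all genes was -0.01, and 46.3% of them lay above 0. DESeq2 called 18 genes and limma-voom called 1, the lncRNA Gm42941. The smallest p-values of named genes belonged to Tap2, Pvr, Itpr1, Lncpint and Myrf, each at an adjusted p of 0.160 in edgeR, and DESeq2 called these 5, with adjusted p-values of at most 0.0405. They were picked by p in these same libraries. That choice favours separated groups and a shared sign in the number sets, so neither is separate support.

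Tap2 (ENSMUSG00000024339, GRCm39 17:34422501-34435829) encodes a subunit of the transporter that carries peptides into the endoplasmic reticulum for MHC class I. In males its lowest, median and highest levels were 12.6, 16.7 and 20.6 CPM on the Western diet, against 14.4, 19.7 and 25.5 CPM under the mixed field. In females they were 13.1, 19 and 27.5 CPM on the Western diet, against 17.6, 23.8 and 32 CPM under the mixed field. The groups overlapped, with 8 of 10 male and 9 of 10 female Western diet libraries below the mixed field median of their own sex. The difference was -0.32 ± 0.07. Itpr1 (ENSMUSG00000030102, 6:108190048-108528070), a calcium release channel of the endoplasmic reticulum, had male levels of 26.1, 36 and 50.1 CPM on the Western diet, against 21.2, 26 and 38 CPM under the mixed field. Female levels were 25.2, 29.6 and 55.7 CPM on the Western diet, against 22.8, 29.2 and 41.4 CPM under the mixed field. All 10 male and 6 of 10 female Western diet libraries lay above the mixed field median of their sex, and the difference was 0.32 ± 0.07.

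Myrf (ENSMUSG00000036098, 19:10185634-10218161) encodes a membrane-bound transcription factor best known for switching on myelin genes. Male levels were 5.22, 6.25 and 8.23 CPM on the Western diet, against 4.83, 9.30 and 10.1 CPM under the mixed field. Female levels were 5.31, 6.34 and 7.37 CPM on the Western diet, against 5.61, 7.59 and 9.02 CPM under the mixed field. All 20 Western diet libraries lay below the mixed field median of their sex, though the ranges overlapped. The difference was -0.33 ± 0.08, at -0.36 in the first and -0.30 in the second number set. Lncpint (ENSMUSG00000044471, 6:31059500-31197607), a long noncoding RNA that p53 induces in mouse cells, differed by 0.80 ± 0.18 on average. Male levels in the first number set were 7.19, 9.39, 4.06, 19.6 and 7.09 CPM on the Western diet, against 3.53, 2.08, 1.62, 2.24 and 3.17 CPM under the mixed field, with no overlap. Its difference was 1.38 ± 0.21 in the first number set and 0.15 ± 0.23 in the second. Without the 8 libraries over 10 CPM of Myl7 the average was 0.36 for Lncpint, -0.34 for Myrf, -0.24 for Tap2 and 0.22 for Itpr1.

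**Figure D1:**
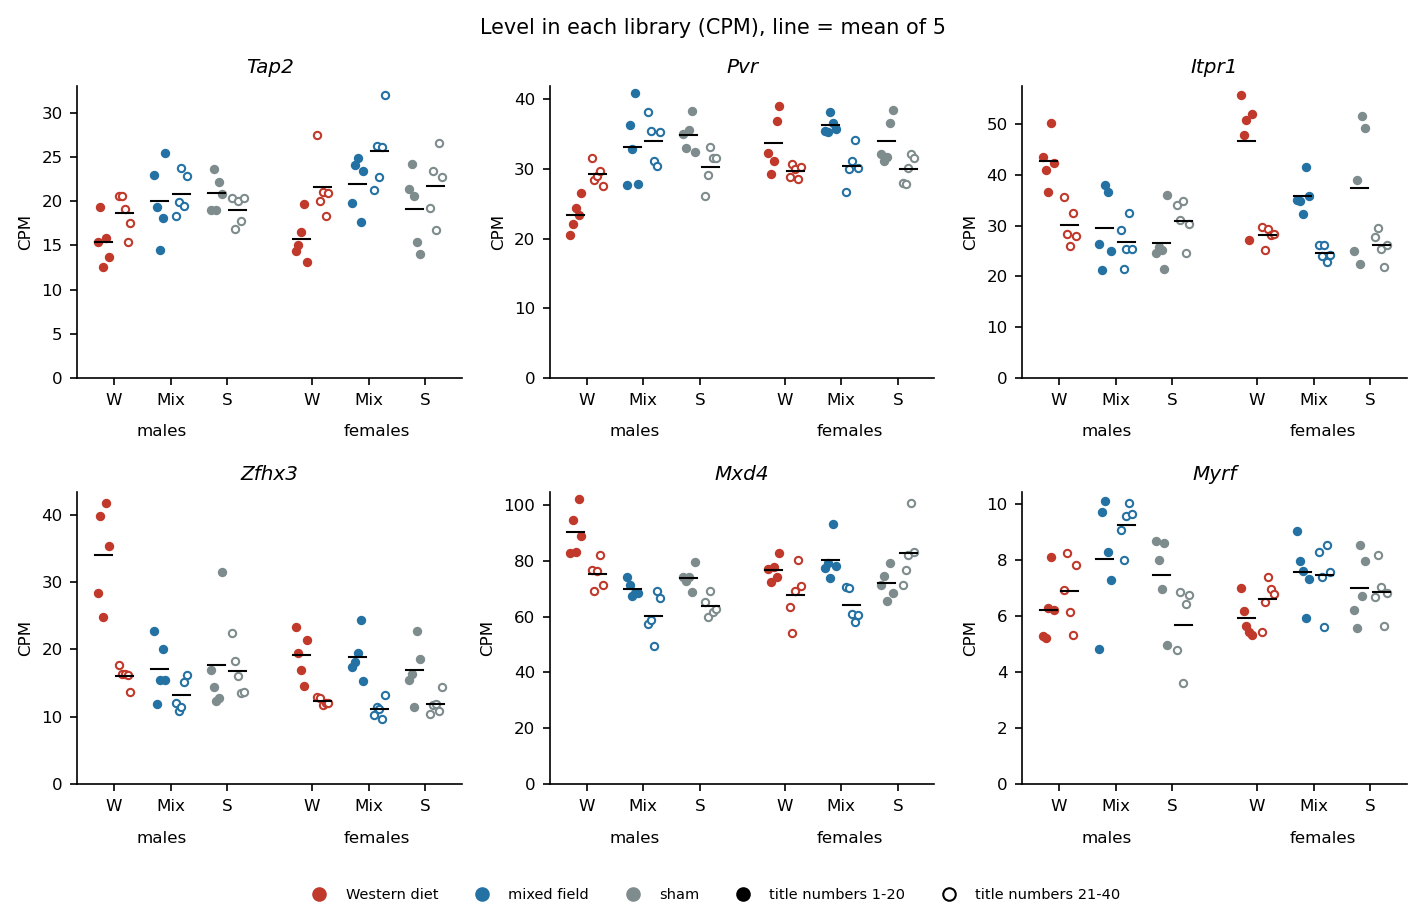
Level of Tap2, Pvr, Itpr1, Zfhx3, Mxd4 and Myrf in each library (y axis, CPM) for Western diet (W), mixed field (Mix) and sham (S) libraries of each sex, with filled points for title numbers 1 to 20, open points for 21 to 40, and a line at the mean of 5. Male Western diet libraries reached 41.7 CPM of Zfhx3 in the first number set and at most 17.7 CPM in the second, where mixed field males reached 16.3 CPM.

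The promoters of 3 of the 4 interferon genes with the smallest p-values are shown because their letters hold the element that interferon factors bind. Ifi27, the other gene of these 4, had no promoter window available. The windows run from 250 bases before to 50 bases after the start of the gene in RefSeq and are given on build GRCm38.p6, an older build than that of the counts, for the strand of the gene. Capitals mark the interferon element (GAAA, NN and GAAA in a row), and in Igtp and Irgm2 also TGACCT, the reverse strand of the nuclear receptor hexamer AGGTCA. Isg15 (4:156200769-156201068, minus strand) has 3 overlapping interferon elements, and Igtp (11:58199306-58199605, plus strand) and Irgm2 (11:58214727-58215026, plus strand) have 1 each.
Isg15: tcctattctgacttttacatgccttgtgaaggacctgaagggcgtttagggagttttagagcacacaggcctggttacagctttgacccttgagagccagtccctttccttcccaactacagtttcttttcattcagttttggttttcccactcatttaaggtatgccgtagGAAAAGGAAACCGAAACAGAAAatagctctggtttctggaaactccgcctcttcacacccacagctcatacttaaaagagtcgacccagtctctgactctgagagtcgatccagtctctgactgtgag
Igtp: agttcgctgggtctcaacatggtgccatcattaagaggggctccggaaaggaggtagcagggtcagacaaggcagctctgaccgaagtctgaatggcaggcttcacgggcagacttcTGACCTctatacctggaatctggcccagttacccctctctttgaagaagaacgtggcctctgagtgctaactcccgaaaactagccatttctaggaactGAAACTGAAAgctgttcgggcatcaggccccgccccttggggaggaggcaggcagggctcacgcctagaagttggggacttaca
Irgm2: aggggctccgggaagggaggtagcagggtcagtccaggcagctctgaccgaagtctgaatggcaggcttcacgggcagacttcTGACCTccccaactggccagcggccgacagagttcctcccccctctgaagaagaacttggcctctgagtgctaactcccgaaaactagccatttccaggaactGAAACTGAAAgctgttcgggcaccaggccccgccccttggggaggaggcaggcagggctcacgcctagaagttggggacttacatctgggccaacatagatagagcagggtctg
Searched on both strands, the interferon element stood in 15 of the 27 windows of the 23 interferon response genes with a window. It stood in 3 of the 14 windows of 13 MHC class I genes, against 3.44% of all 32851 windows. The nuclear receptor hexamer stood in 5 of the 27 and in 7 of the 14 windows, against 16.3% of all windows. None of the 24 clock genes with a window had the interferon element. The search of whole lists was added after their values were seen, and a match describes letters only.

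The interferon response genes lay lower on the Western diet than under the mixed field as a group, although none was called. All 34 tested genes of the list had a difference below 0, with a median of -0.19 against -0.01 over all genes. An unadjusted p under 0.05 was met by 15 of the 34, all lower, against 5.11% of all genes. The median was -0.22 in males and -0.17 in females. Without the 8 libraries over 10 CPM of the atrial gene Myl7, which are 5 male Western diet and 3 male mixed field libraries, 13 of the 34 differences were above 0, the median was -0.04 and 1 gene met the unadjusted p. Those 8 include every male Western diet library of the first number set.

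Isg15 (ENSMUSG00000035692, 4:156283883-156285303), a ubiquitin-like protein joined to other proteins after interferon, had the largest difference of the list. Male levels were 3.47, 4.09 and 6.81 CPM (lowest, median, highest) on the Western diet, against 3.67, 5.38 and 10.6 CPM under the mixed field. Female levels were 2.62, 4.32 and 7.10 CPM on the Western diet, against 3.56, 6.76 and 9.93 CPM under the mixed field. Below the mixed field median of their sex lay 8 of 10 male and 9 of 10 female Western diet libraries, with wide overlap. The difference was -0.46 ± 0.14 with an adjusted p of 0.258 in edgeR. Irgm2 (ENSMUSG00000069874, 11:58090444-58113615) and Igtp (ENSMUSG00000078853, 11:58089840-58098417) encode interferon-induced GTPases that act on vacuoles of intracellular pathogens. Their differences were -0.38 ± 0.12 and -0.42 ± 0.14, and because the genes overlap and are alike in sequence, the split of reads between them is uncertain. Irgm2 reached 33.2 CPM at most in female Western diet libraries, against 72.1 CPM in female mixed field libraries. Ifi27 (ENSMUSG00000064215, 12:103392254-103407799), an interferon-induced membrane protein, differed by -0.29 ± 0.10.

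Each group was also set against the sham libraries. The median of the interferon list was -0.01 for Western diet minus sham, with 16 of 34 genes above 0, and 0.21 for mixed field minus sham, with 34 of 34 above 0. Both comparisons use the same sham libraries, and edgeR called none of these genes in either one. Isg15 differed from sham by 0.00 ± 0.14 on the Western diet and by 0.47 ± 0.14 under the mixed field. Irgm2 differed by -0.07 on the Western diet and by 0.33 under the mixed field, and Ifi27 by -0.07 on the Western diet and 0.23 under the mixed field. Without the libraries over 10 CPM of Myl7 in any group, the list median was 0.03 for Western diet minus sham, with 21 of 34 above 0, and 0.07 for mixed field minus sham, with 24 of 34 above 0. By sex, mixed field minus sham then had 17 of 34 genes above 0 in males and 30 of 34 in females, where no library was left out. Isg15 was then at 0.02 ± 0.19 on the Western diet and 0.43 ± 0.20 under the mixed field, averaged over the sexes.

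**Figure D2:**
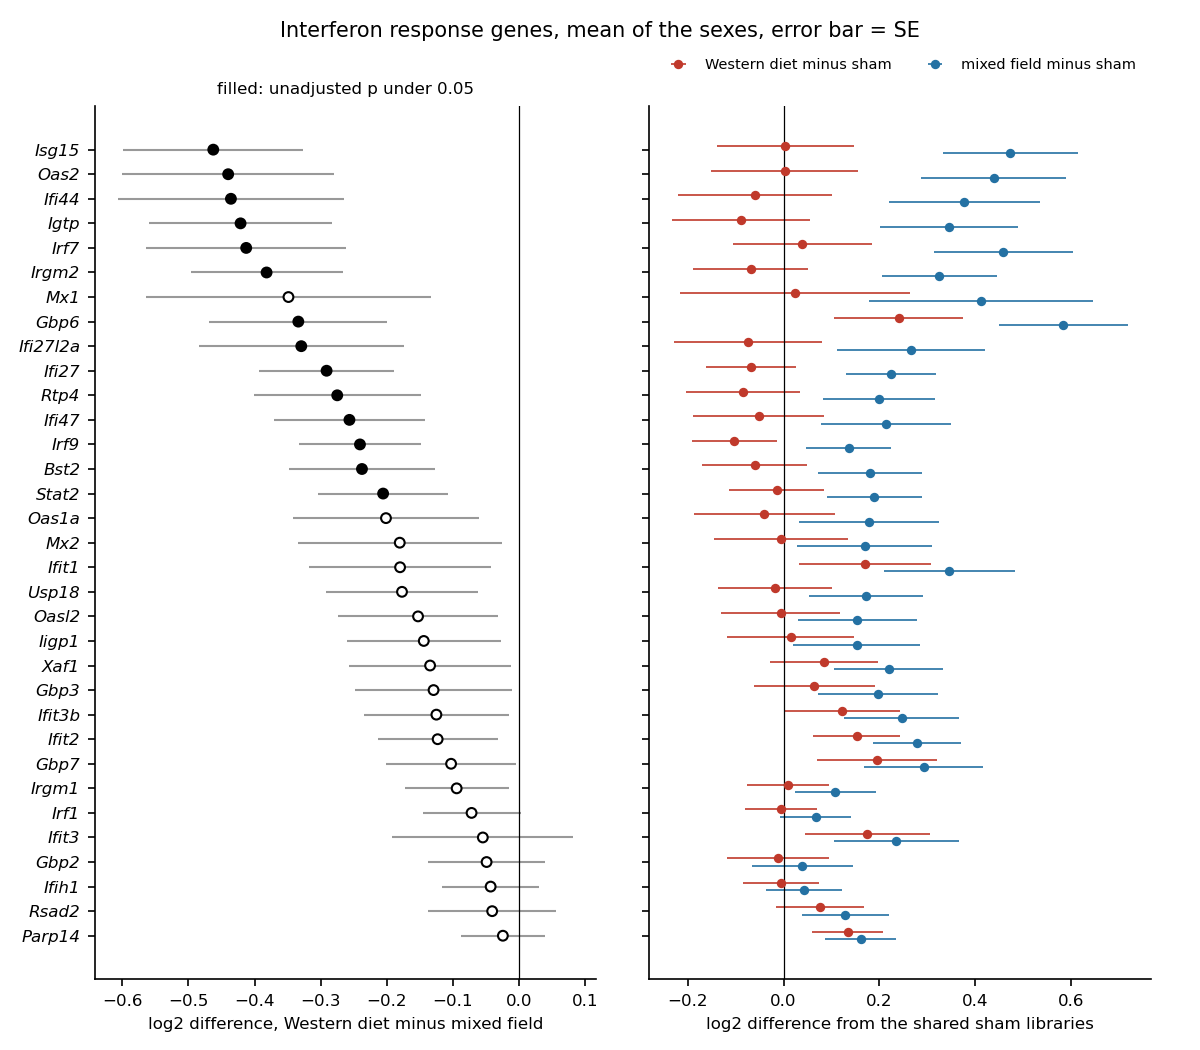
Members of the interferon response list, averaged over the sexes: the left panel plots the log2 difference of Western diet minus mixed field, filled where the unadjusted p was under 0.05, and the right panel plots each group minus the shared sham libraries, with bars of 1 SE. Every point lies left of 0 in the left panel, and in the right panel every mixed field point lies right of 0, while Western diet points lie on both sides.

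The number sets gave unlike values for the interferon genes. In the first set the list median was -0.33, with 16 of 34 genes lower at an unadjusted p under 0.05, against 9.62% of all genes in that set. In the second it was -0.08, with 6 of 34 genes above 0 and none lower at that p, against 1.97% of all genes. Irgm2 (-0.63, adjusted p = 0.0224) and the antiviral GTPase Mx1 (-1.0, adjusted p = 0.0424) were called lower by edgeR in the first set. Macrophage markers moved the same way there. The sum of the 14 markers, all with counts, had lowest, median and highest values of 269, 302 and 525 CPM in male Western diet libraries of the first set, against 258, 391 and 599 CPM in male mixed field libraries, and of 266, 297 and 413 CPM in female Western diet libraries, against 348, 474 and 535 CPM in female mixed field libraries. In the second set the medians were 315 CPM on the Western diet and 265 CPM under the mixed field in males, and 295 CPM on the Western diet and 253 CPM under the mixed field in females. The part of these cells in the interferon values was not tested.

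MHC class I presentation genes followed the same order. All 15 had differences below 0, with a median of -0.17. Against 5.11% of all genes, 4 of the 15 were lower at an unadjusted p under 0.05. These were Tap2, its partner Tap1 (-0.30 ± 0.11), and the class I heavy chains H2-K1 (-0.23 ± 0.08) and H2-Q7 (-0.33 ± 0.14), whose near-identical relatives leave the read split uncertain. The count was 7 or 8 when any of male mixed field replicates 3, 4 and 6, male Western replicates 2 and 8, female mixed field replicate 6 or female Western replicate 6 was left out, and 1 without the 8 libraries over 10 CPM of Myl7, where 4 of 15 differences lay above 0. Tap2 was called lower in the first number set, at an adjusted p of 0.0134 in edgeR. The list median was -0.06 for Western diet minus sham and 0.12 for mixed field minus sham, or -0.01 and 0.02 without the libraries over 10 CPM of Myl7 in any group.

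Genes for protein folding in the endoplasmic reticulum also lay lower on the Western diet. Of 20 chaperones, 17 had differences below 0 and 3 above, against 46.3% of all genes above 0, and the median was -0.11. At an unadjusted p under 0.05, 9 were lower, against 5.11% of all genes. Without the libraries over 10 CPM of Myl7, 3 were lower at that p, while the median was -0.10 and again 3 of 20 lay above 0. Serpinh1 (ENSMUSG00000070436, 7:98994220-99005076), the chaperone of collagen, had 113, 158 and 187 CPM in male Western diet libraries, against 155, 169 and 262 CPM in male mixed field libraries. In females it had 167, 198 and 268 CPM on the Western diet, against 188, 222 and 273 CPM under the mixed field. The ranges overlapped in both sexes, with a difference of -0.21 ± 0.07. Serpinh1, Hyou1 and the disulfide isomerase Pdia4 were called lower in the first number set. Male Western diet libraries were lower than male sham libraries by edgeR for Serpinh1 (-0.40, adjusted p = 0.0153), Pdia4 (-0.31, adjusted p = 0.0213) and Hyou1 (-0.28), whereas no chaperone of the list was called for the mixed field in males. Without the libraries over 10 CPM of Myl7 in any group these differences on the Western diet were -0.40, -0.29 and -0.26 in that order, and none was called. In the direct male contrast of Western diet and mixed field, none was called. Among 22 heat shock chaperones of the cytosol the median was -0.08. Lower at the unadjusted p were 4, against 5.11% of all genes, with Hsph1 at -0.17 and Hspb1 at -0.23. Without the libraries over 10 CPM of Myl7, 2 were lower at that p, while the median was -0.06. In that fit 3 of 22 lay above 0, against 6 with all libraries.

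For fatty acid oxidation the median of 23 genes was 0.01, and none met an unadjusted p under 0.05. PPAR targets had a median of -0.02 over 18 genes, fatty acid uptake -0.03 over 13, and ketone use -0.01 over 6. Lipid droplet genes had a median of -0.07 over 15, and 3 were lower at the unadjusted p, against 5.11% of all genes. These were the droplet coat genes Plin3 (-0.15) and Plin4 (-0.17) and the lipase inhibitor G0s2 (-0.20). Cholesterol synthesis had a median of 0.03, with Lss at 0.20 and the sterol carrier Stard4 at 0.17 among 21. In glycolysis 19 of 22 genes lay below 0 and 3 above, against 46.3% of all genes above 0, and the median was -0.08. Lower at the unadjusted p were 2, against 5.11% of all genes: the glucose carrier Slc2a1 at -0.22 and Gpi1 at -0.11. In the first number set 9 of the 22 were lower at that p, against 9.62% of all genes, and in the second none was. Respiratory complex I, complexes II to V and the mitochondrially encoded subunits had medians of -0.02, 0.00 and 0.05 with none at the unadjusted p among 22, 24 and 13 genes. None of the genes of these lists was called averaged over the sexes. In the first number set edgeR called Ppargc1b, a coactivator of mitochondrial genes, higher (0.63, adjusted p = 0.0407) and the monoglyceride lipase Mgll lower (-0.33, adjusted p = 0.0270), both named after their values were seen. Against sham, edgeR called Acaca at 0.46 and Agpat3 at -0.28 in males on the Western diet and Dgat2 at -0.37 in females on the Western diet, all enzymes of fatty acid or glycerolipid synthesis, named in the same way.

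Targets of p53 had a median of -0.02 over 21 genes, and none met the unadjusted p averaged over the sexes; at most 2 did under the alternatives run for that average. In the first number set the median was -0.10 and 5 of 21 were lower at that p, against 9.62% of all genes, with the cell cycle inhibitor Cdkn1a at -0.70 ± 0.25; in the second set none was, and Cdkn1a was at 0.33. None of the list was called in either set. The 25 genes for DNA damage sensing and repair had a median of 0.02. Of these, 3 were lower at an unadjusted p under 0.05, against 5.11% of all genes. Among the 3 were Xrcc1, a scaffold of single-strand break repair, at -0.18 and the histone H2ax at -0.24. The 21 sodium and potassium channel genes had a median of 0.01, with 1 higher and 2 lower at the unadjusted p. Among all genes 4.83% were higher and 5.11% lower at that p. In this list Kcnip2, a subunit of the transient outward potassium channel, was at -0.23 ± 0.07 and Kcnd3, its pore, at 0.20. The 17 hypertrophy and fetal genes had a median of -0.03, with 1 lower at the unadjusted p. The slow myosin chain Myh7 of that list was at -0.58 ± 0.25, with a highest level of 994 CPM in male Western diet libraries against 2020 CPM in male mixed field libraries, and of 739 CPM in female Western diet libraries against 2535 CPM in female mixed field libraries. Each highest level is that of a single library. None of the genes named in this paragraph was called in the averaged contrast.

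Other muscle and cell maintenance genes lay close to the median of all genes. Sarcomere and Z-disc genes had a median of -0.03 over 21, calcium handling genes 0.02 over 17, cytosolic ribosomal proteins -0.03 over 30 and splicing factors -0.01 over 25. Insulin and FOXO genes had a median of 0.06, with Igf1r, the receptor of insulin-like growth factor, at 0.14 and the muscle ubiquitin ligase Trim63 at 0.12. Among markers of other cells, all 5 of the endocardium and valves lay above 0, with a median of 0.24, led by Cytl1 at 0.30 and by Npr3, the clearance receptor of natriuretic peptides, at 0.24. The median was 0.39 in males, with all 5 above 0, and 0.05 in females, with 3 of 5 above 0.

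Clock genes were called against sham in some groups, but not between the Western diet and the mixed field. The 5 clock activators had a median difference of 0.14, with Clock at 0.24 ± 0.08, and the 9 repressors a median of -0.07. In males Bmal1 (ENSMUSG00000055116, 7:112806152-112914735), the activator at the core of the clock, had lowest, median and highest levels of 0.845, 2.10 and 8.81 CPM on the Western diet and 1.5, 2.04 and 7.86 CPM under the mixed field, against 5.11, 6.96 and 11.4 CPM in sham libraries. In females it had 4.25, 12.2 and 14.9 CPM on the Western diet and 1.51, 7.06 and 15.1 CPM under the mixed field, against 0.984, 2.60 and 5.62 CPM in sham libraries. Relative to sham, edgeR called it lower in males on the Western diet (-1.31, adjusted p = 0.0079) and under the mixed field (-1.33, adjusted p = 0.0149), and higher in females on the Western diet (1.79, adjusted p = 7.99e-05), while for females under the mixed field it was at 1.10 (adjusted p = 0.310). Without the libraries over 10 CPM of Myl7 in any group, males were at -0.72 on the Western diet and -1.56 under the mixed field relative to sham, neither called, and females on the Western diet at 1.78 (adjusted p = 4.01e-05). Western diet minus mixed field was -0.04 ± 0.36 in males and 0.67 ± 0.32 in females, neither called. Per2 (ENSMUSG00000055866, 1:91343700-91387069), a repressor of the clock, had 10.1, 16.9 and 36.1 CPM in female Western diet libraries, against 16.5, 32 and 53.8 CPM in female mixed field libraries. The difference was -0.70 ± 0.20, with an adjusted p of 0.877, or 0.0404 without female Western replicate 5, by edgeR. The labels give no hour of collection, and its part in these values was not tested.

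In males edgeR called 5 genes (0.0329%) between the Western diet and the mixed field, 4 higher and 1 lower. Higher were Zfhx3 (0.65 ± 0.12), Mxd4 (0.34 ± 0.06) and the predicted lncRNAs Gm42941 and Gm26632, and Pvr was lower (-0.36 ± 0.07). Zfhx3 (ENSMUSG00000038872, 8:108669276-109688262) is a homeobox transcription factor whose human gene is linked to atrial fibrillation. Its male levels in the first number set were 28.4, 39.8, 24.8, 41.7 and 35.4 CPM on the Western diet, against 22.8, 12, 15.5, 20.1 and 15.4 CPM under the mixed field. Second-set levels were 17.7, 16.4, 16.4, 16.2 and 13.7 CPM on the Western diet, against 12.1, 10.8, 11.5, 15.1 and 16.3 CPM under the mixed field. The groups did not overlap in the first set and overlapped in the second, with differences of 0.99 ± 0.15 and 0.29 ± 0.15.

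Mxd4 (ENSMUSG00000037235, 5:34331227-34345240) encodes a partner of MAX that opposes MYC. Male levels in the first set were 82.6, 94.6, 83, 102 and 88.8 CPM on the Western diet, against 74, 71.2, 67.3, 68.5 and 68.5 CPM under the mixed field. Those of the second set were 76.7, 69.3, 76.4, 82.1 and 71.1 CPM on the Western diet, against 57.3, 58.9, 49.6, 69.2 and 66.6 CPM under the mixed field. Mxd4 thus had no overlap within either set, with differences of 0.37 ± 0.09 and 0.32 ± 0.09. Zfhx3, Mxd4 and Pvr were picked by their male calls over these same libraries. That choice favours separation in each set, so it is no separate support. Pvr (ENSMUSG00000040511, 7:19637503-19655085) encodes an adhesion protein that receptors of natural killer cells recognise. Male levels in the first set were 20.5, 22, 24.3, 23.4 and 26.6 CPM on the Western diet, against 27.6, 36.4, 32.8, 40.9 and 27.8 CPM under the mixed field. In the second set they were 31.5, 28.4, 29, 29.6 and 27.5 CPM on the Western diet, against 38.1, 35.4, 31.1, 30.4 and 35.3 CPM under the mixed field. All 10 Western diet males lay below the mixed field median, without overlap in the first set.

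In females the same 3 genes differed by 0.08 ± 0.12 (Zfhx3), 0.01 ± 0.06 (Mxd4) and -0.07 ± 0.07 (Pvr). The tests of the difference between the sexes did not pass, with an adjusted p of 0.938 for each in edgeR. Against male sham libraries, the Western diet values were 0.26 ± 0.06 for Mxd4 (adjusted p = 0.0247) and -0.31 ± 0.07 for Pvr (adjusted p = 0.0079), both called by edgeR, and 0.46 ± 0.15 for Zfhx3 (adjusted p = 0.0921). The mixed field values against the same sham libraries were -0.08, 0.04 and -0.21 for Mxd4, Pvr and Zfhx3, none called. Without the libraries over 10 CPM of Myl7 in any group, the Western diet values against sham were 0.24 for Mxd4, -0.10 for Pvr and 0.06 for Zfhx3, and those of the mixed field were -0.01, 0.15 and -0.18, none called. The male calls between the Western diet and the mixed field depended on single libraries more than their sizes did. With 1 library left out, Mxd4 stayed between 0.32 and 0.37 (highest adjusted p 0.0797), Zfhx3 between 0.57 and 0.71 (0.0797) and Pvr between -0.38 and -0.31 (0.107). None of the 5 was called without male mixed field replicate 2, 3 or 4 or male Western replicate 2 or 4, and 3 were called without male Western replicate 1. Counts of 8, 10, 12, 15 and 16 came without male Western replicate 8, female Western replicate 4, male Western replicate 7, male mixed field replicate 10 and male Western replicate 10 in that order.

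Atrial RNA differed among the male libraries. Myl7, the atrial myosin light chain, was at 228, 41.4, 17.3, 51.1 and 27.5 CPM in male Western replicates 1 to 5, and above 10 CPM among the other libraries compared only in male mixed field replicates 8 (628 CPM), 2 (11.8 CPM) and 4 (15.9 CPM), with at most 0.452 CPM in females. Of the male sham libraries, 6 of 10 were above 10 CPM as well. All 9 atrial markers had counts in the male groups, and their sum in the first number set had lowest, median and highest values of 117, 219 and 1175 CPM on the Western diet, against 34.3, 74 and 130 CPM under the mixed field. Without the 8 libraries over 10 CPM of Myl7, edgeR called 0 genes in males, with 491 at an unadjusted p under 0.05. Zfhx3 was then at 0.24, Mxd4 at 0.25 and Pvr at -0.25. That fit has no male Western diet library of the first number set.

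In females edgeR called 0 genes (0%), with 794 at an unadjusted p under 0.05, and DESeq2 and limma-voom also called 0. The 5 named genes of smallest p were Zbtb6, Adamtsl4, Tap2, Arhgap12 and Exoc5, each at an adjusted p of 0.877 in edgeR. Their choice by p in these same libraries favours separated groups. Zbtb6 (ENSMUSG00000066798, 2:37315447-37333190), a zinc finger protein, had 6.14, 6.63 and 8.19 CPM on the Western diet, against 4.47, 5.31 and 6.39 CPM under the mixed field. All 10 Western diet females lay above the mixed field median, and the difference was 0.33 ± 0.09. Adamtsl4 (ENSMUSG00000015850, 3:95583509-95595231), which binds fibrillin microfibrils, had 37.1, 53 and 66.5 CPM on the Western diet, against 55.5, 66.9 and 82.9 CPM under the mixed field. Its difference was -0.35 ± 0.09, with all 10 Western diet females below the mixed field median. Exoc5 (ENSMUSG00000061244, 14:49219443-49304160), a subunit of the exocyst that tethers secretory vesicles, was at 0.22 ± 0.06, and Arhgap12 (ENSMUSG00000041225, 18:6024427-6136098), a GTPase-activating protein, at 0.25 ± 0.07.

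Whether the sexes differed was tested directly, and edgeR called 0 genes (0%), with 785 at an unadjusted p under 0.05. DESeq2 and limma-voom called 0 as well. Adh1 (ENSMUSG00000074207, 3:137966752-137996462), an alcohol dehydrogenase that also oxidises retinol, was at 10.5, 13.5 and 16.6 CPM in male Western diet libraries, against 7.35, 10.7 and 14.3 CPM in male mixed field libraries. In females it was at 5.05, 6.50 and 10.4 CPM on the Western diet, against 5.22, 10.6 and 14.8 CPM under the mixed field. The difference was 0.38 in males and -0.40 in females, and male minus female was 0.78 ± 0.21 (adjusted p = 0.938). Chordc1 (ENSMUSG00000001774, 9:18203387-18228746), a partner of the chaperone HSP90, was at -0.27 in males and 0.12 in females. Zc3h8 (ENSMUSG00000027387, 2:128768124-128786010), a zinc finger protein, was at -0.27 in males and 0.19 in females.

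The number sets gave unlike pictures. Within title numbers 1 to 20, edgeR called 253 genes higher on the Western diet (1.66%) and 138 lower (0.908%). All male Western diet libraries of that set had over 10 CPM of Myl7, and the set was not fitted without such libraries. Within title numbers 21 to 40 edgeR called 0 (0%), with 672 genes at an unadjusted p under 0.05, while DESeq2 called Sln, Myl4, Myl7 and Ndrg1, and limma-voom called none. Sln, Myl4 and Myl7 are atrial markers. In males of that set alone edgeR called Myl7 lower on the Western diet (-9.77, adjusted p = 0.0306). Of the second-set libraries compared, only male mixed field replicate 8 had over 10 CPM of Myl7, at 628 CPM. Of the 253 genes, 248 had the same sign in both sexes of the first set. They were chosen by the mean of the sexes in those libraries, which favours a shared sign, so this does not show that the sexes agree. In the second set 117 of the 253 were above 0, and their median was -0.01 against 0.64 in the first. Of the 138 genes, 51 were below 0 in the second set, where their median was 0.03 against -0.35 in the first. In the first set edgeR called 263 genes in males alone and 5 in females alone, the latter being Znfx1, Kiz, Amy1, Sema7a and Acp1, named after their values were seen. Left-out libraries moved the count from 163 without female Western replicate 2 to 1017 without female Western replicate 4. It was also below 261 without female Western replicates 1 or 5, male Western replicate 4, female mixed field replicate 3 or male mixed field replicate 2 (168, 249, 198, 222 and 234), and reached 821 without male mixed field replicate 3.

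**Figure D3:**
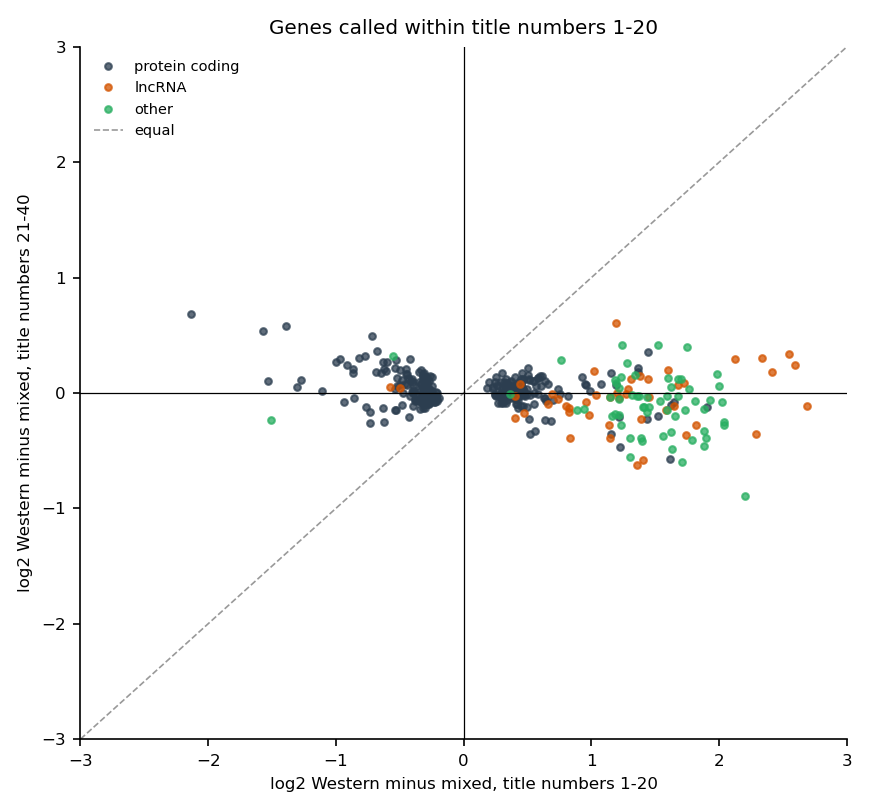
Each point is 1 of the 391 genes called within title numbers 1 to 20, with its log2 difference (Western diet minus mixed field) in that set on the x axis and in title numbers 21 to 40 on the y axis, coloured by gene type. The points lie along the horizontal line at 0 and not along the dashed line of equal values: the 253 higher genes have medians of 0.64 and -0.01.

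Genes not annotated as protein coding took a large share of those called higher in the first set. lncRNAs gave 44 of the 253 calls (3.53% of the 1245 tested), against 150 protein-coding genes (1.13% of 13287). All remaining types together gave 59 (8.77% of 673), a mixed class that also holds immunoglobulin genes, which encode protein. The genes named here follow the same naming rule, applied to this set after its values were seen. Malat1 (ENSMUSG00000092341, 19:5845717-5853602), an abundant lncRNA of nuclear speckles, was at 1326, 1607, 766, 2062 and 1110 CPM in male Western diet libraries of the first set, against 459, 515, 177, 367 and 607 CPM in male mixed field libraries. In females it was at 2840, 1926, 1627, 938 and 3045 CPM on the Western diet, against 1649, 1686, 1774, 1606 and 1317 CPM under the mixed field. The males did not overlap and the females did. Its difference was 1.03 in the first set and -0.01 in the second. Kcnq1ot1 (ENSMUSG00000101609, 7:142731402-142850327), the imprinted antisense RNA of the Kcnq1 locus, was at 1.29 and 0.04, and Carmn, a lncRNA of smooth muscle and cardiac precursors, at 1.60 and 0.20. Rn7sk (ENSMUSG00002076161, 9:78082585-78082915), the small RNA that holds the elongation factor P-TEFb inactive, was at 1.63 and 0.05. It carries no poly-A tail, although the libraries were poly-A selected. Rn18s-rs5, a ribosomal RNA copy, had lowest, median and highest shares of counts of 0.102%, 3.99% and 4.14% in female Western diet libraries of the first set, against 3.01%, 4.12% and 4.44% in female mixed field libraries. With its share as a term, edgeR called 272 genes in the first set.

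**Figure D4:**
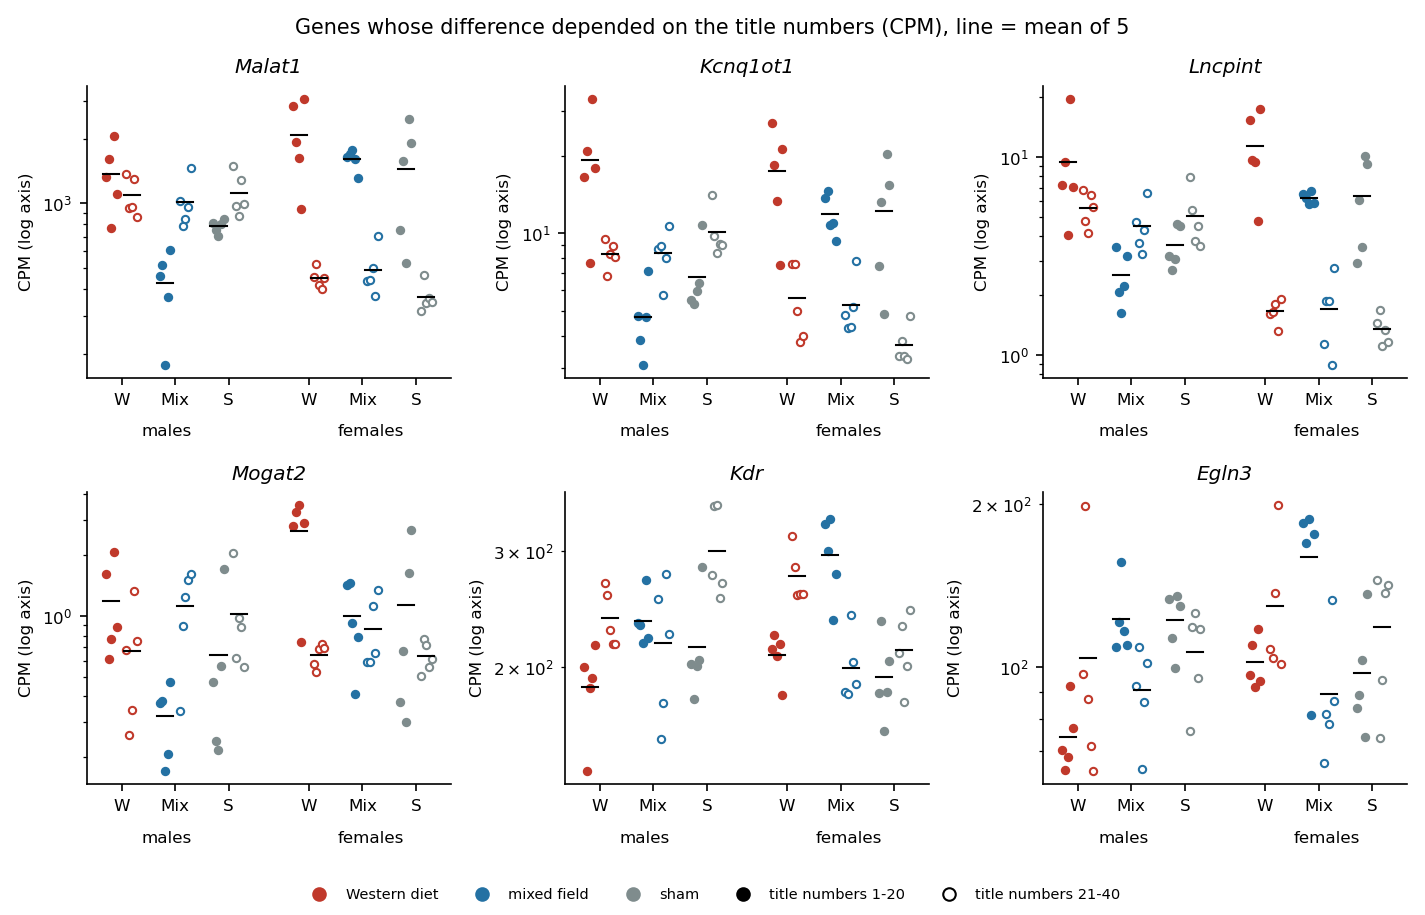
Level of Malat1, Kcnq1ot1, Lncpint, Mogat2, Kdr and Egln3 in each library (y axis, CPM, log axis) for Western diet (W), mixed field (Mix) and sham (S) libraries of each sex, with filled points for title numbers 1 to 20, open points for 21 to 40 and a line at the mean of 5. Male Western diet libraries of the first set had 766 to 2062 CPM of Malat1, all above the 177 to 607 CPM of the male mixed field libraries.

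The named genes called lower on the Western diet in the first set include globin, complement and acute phase genes. Hbb-bt, a beta globin, was at -2.14 in the first set and 0.69 in the second. Serpina3n (ENSMUSG00000021091, 12:104372810-104380597), an acute phase protease inhibitor, was at 10.5, 11, 7.95, 12.4 and 9.58 CPM in female Western diet libraries of the first set, against 60.3, 11.9, 110, 18.2 and 35.3 CPM in female mixed field libraries. Only 1 pair of values crossed, and the difference was -1.57 in the first set and 0.54 in the second. The complement gene C4b was at -0.97 and 0.30, Mx1 at -1.0 and 0.27, and the membrane gene Ms4a6b at -0.87 and 0.17. Leaving out single libraries of this set ended the call of Serpina3n in 10 of 20 cases, of Hbb-bt in 7, of C4b in 8 and of Mx1 in 13, whereas Rn7sk, Lncpint, Kcnq1ot1, Carmn and Ms4a6b were called in all 20.

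Markers of other cell types moved with the number sets. The collagen list had medians of -0.36 in the first set, with 12 of 19 genes lower at an unadjusted p under 0.05 against 9.62% of all genes, and of 0.27 in the second, with 5 higher against 2.45% of all genes. Macrophage markers had medians of -0.37 and 0.23, endothelial markers of -0.18 and 0.20, and erythroid markers of -1.22 and 0.67. B cell markers went the other way, with medians of 1.03 and -0.20: in the first set all 8 lay above 0 and 6 were higher at the unadjusted p, against 8.19% of all genes, and the immunoglobulin genes Ighd (1.23) and Igkc (1.22) were called by edgeR. Atrial markers also did, with medians of 0.54 and -1.01. Their sum in second-set males had a median of 45.0 CPM on the Western diet, against 54.0 CPM under the mixed field. The highest mixed field sum there was 2188.5 CPM, and only mixed field replicate 8 had high Myl7 (628 CPM). First-set females went the other way, with median sums of 39.3 CPM on the Western diet and 50.7 CPM under the mixed field. Erythroid RNA in the first set summed to 218, 326 and 630 CPM (lowest, median, highest) in female Western diet libraries, against 307, 592 and 3864 CPM in female mixed field libraries. The endothelial sum there was 1160, 1210 and 1459 CPM in female Western diet libraries, against 1372, 1569 and 1662 CPM in female mixed field libraries. The part of cell makeup in the gene values was not tested.

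**Figure D5:**
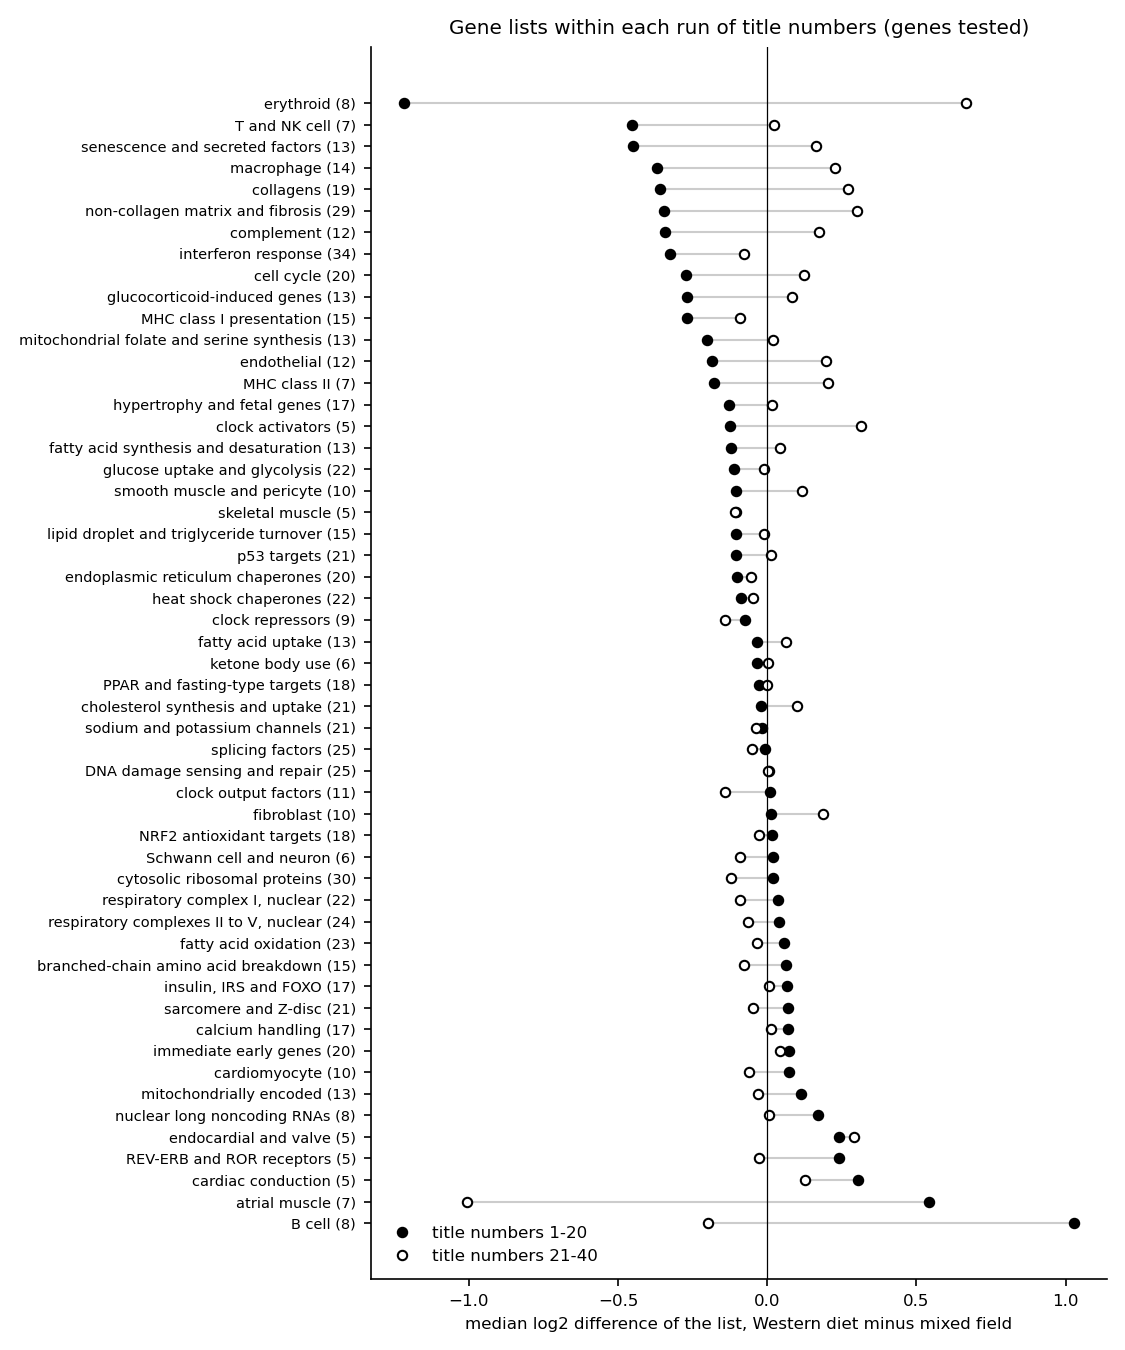
Median log2 difference (Western diet minus mixed field) of gene lists within title numbers 1 to 20 (filled) and 21 to 40 (open), with the number of genes tested after each name. The neutrophil, adipocyte, and epicardial and mesothelial lists, with few genes tested, are not shown. Collagen, matrix, macrophage, endothelial and erythroid lists lie left of 0 in the first set and right of 0 in the second, while the interferon list lies left of 0 in both, at -0.33 and -0.08.

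The change between the sets was itself tested, and edgeR called 14 genes (0.0921%), 4 with a higher and 10 with a lower difference in the second set. Of these, 7 are named genes and 7 are predicted genes, and they too were picked after their values were seen. Kdr (ENSMUSG00000062960, 5:76093487-76139884), the main VEGF receptor of endothelial cells, had 213, 223, 207, 216 and 181 CPM in female Western diet libraries of the first set, against 329, 300, 335, 235 and 277 CPM in female mixed field libraries. Second-set levels were 316, 284, 257, 258 and 258 CPM on the Western diet, against 183, 182, 240, 203 and 188 CPM under the mixed field. The groups did not overlap in either set, and their order turned round. Over both sexes the difference was -0.42 in the first and 0.29 in the second set, with a change of 0.71 (adjusted p = 0.0035). The chemokine Cxcl12 (ENSMUSG00000061353, 6:117144945-117158328) was at -0.26 and 0.32, the anticoagulant receptor Thbd at -0.32 and 0.16, and Egln3, a prolyl hydroxylase that marks hypoxia-inducible factor for decay, at -0.68 and 0.36.

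Pou2f1 (ENSMUSG00000026565, 1:165692723-165830247), a widely expressed octamer-binding factor, went the other way. In the first set it was at 16.1, 16, 15.3, 20.2 and 14.2 CPM in male Western diet libraries, against 9.85, 6.55, 9.14, 8.54 and 7.22 CPM in male mixed field libraries, and females did likewise at 12.1, 15.2, 12.4, 8.30 and 11.1 CPM on the Western diet, against 7.24, 7.84, 7.79, 8.50 and 6.31 CPM under the mixed field. The males did not overlap, and in females 1 pair of values crossed. In the second set male libraries were at 8.01, 6.94, 9.54, 8.44 and 8.10 CPM on the Western diet, against 9.25, 6.43, 7.80, 10.3 and 9.03 CPM under the mixed field. The difference was 0.82 in the first set and -0.03 in the second, a change of -0.84 (adjusted p = 0.0035). Igsf9b (ENSMUSG00000034275, 9:27210500-27268842), an adhesion molecule, was at 0.56 and -0.33, and Mogat2, an enzyme of triglyceride synthesis, at 1.62 and -0.57. Without 1 library the count of such genes lay between 9 and 207: it was 9 without female mixed field replicate 1 or female Western replicate 1, 5 or 9, 207 without female Western replicate 4, 89 without male mixed field replicate 3, 49 without male Western replicate 2, 46 without male mixed field replicate 1, 45 without male mixed field replicate 5, 39 without female Western replicate 7, 33 without female mixed field replicate 7 and 28 without male Western replicate 9.

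Measured from the sham libraries in a fit of all 80 libraries and 15879 genes, the Western diet gave 194 calls in males (1.22%), 83 higher and 111 lower, and 28 in females (0.176%), 14 in each direction. The mixed field gave 25 in males (0.157%), 17 higher and 8 lower, and 0 in females (0%), where 1293 genes met an unadjusted p under 0.05. These comparisons share the sham libraries, and a larger count for the Western diet does not show that it differed from the mixed field, for which the direct contrasts above are the test. Without the libraries over 10 CPM of Myl7 in any group, edgeR called 0 genes in males on the Western diet (870 at an unadjusted p under 0.05), 11 in females on the Western diet, and 0 in males and 0 in females under the mixed field (798 and 1408 at the unadjusted p). That fit has no male Western diet or male sham library of the first number set. With no term for the number sets the counts were 63 and 3 on the Western diet in males and females, and 11 and 0 under the mixed field. The 3 female genes were Bmal1, the tetraspanin gene Tspan4 and Ypel2, named after their values were seen.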

How the data were processed

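Poly-A selected RNA of mouse left ventricle was sequenced as paired ends, per the labels' protocols. The submitters' processing notes name FastQC 0.11.9, STAR 2.7.8a and the builds GRCm39 and mm39; the sources used here do not give the counter, its annotation or its use of strand. The values are raw read counts per gene, as the authors deposited them, with no normalization by the authors apparent in the file, and they were whole numbers. From these counts, edgeR 4.0.16 (R 4.3.3) fitted 40 libraries after filterByExpr, with TMM factors, 1 coefficient for each sex and condition and a number set term for each sex. This kept 15205 genes and at least 99.79% of each library's counts, and the common dispersion of 0.0351 corresponds to a coefficient of variation of 18.7% between libraries. A second fit gave each sex, condition and number set its own coefficient, and a fit of all 80 libraries gave each group minus sham. DESeq2 1.42.0 and limma 3.58.1 served as alternatives, with other filters, scalings and left-out libraries, and with added terms for the Rn18s-rs5 share or for 2 principal components of clock genes. The scripts were tested on simulated data.

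The libraries and the gene lists were chosen with earlier results of these data known. Named genes are, in each contrast, the called genes averaging 1 CPM or more, at most 10 of the largest rises and 10 of the largest falls (predicted genes, pseudogenes, immunoglobulin and T cell receptor segments, Xist and Y-linked genes left out), or the 5 of smallest p where fewer than 5 were called, plus up to 4 genes of smallest p from each list. Replicate numbers name libraries within a group in accession order and pair nothing. Of 56941 genes in the table, 56323 matched the reference annotation by ID. Promoter windows came from RefSeq. Some genes of the lists are counted but not reported here by name. Within each of the 4 groups compared, no 2 libraries were copies of each other.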

Additional observations from a re-analysis of the deposited data

Results flagged for a closer look

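Of 80 groups of values examined for a single library far from the rest, 7 held one, where chance gives about 5%. Lncpint reached 19.6 CPM in male Western replicate 4, with the nearest male Western library at 9.39 CPM. Zbtb6 reached 8.19 CPM in female Western replicate 2, with the next at 7.04 CPM. Myl7, the atrial light chain, was at 228 CPM in male Western replicate 1 (next 51.1 CPM) and at 628 CPM in male mixed field replicate 8 (next 15.9 CPM). Rn18s-rs5 took 1.63% of counts in male mixed field replicate 5 of the first number set, with the next at 0.536%. The median correlation with the other libraries of the group was low in male Western replicate 7, at 0.960, and in female mixed field replicate 10, at 0.958.

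The difference between the Western diet and the mixed field changed between the number sets for 7 named genes, by edgeR's test of that change (second set minus first). The change was -0.84 for Pou2f1, -0.89 for Igsf9b and -2.19 for Mogat2, which were higher on the Western diet in the first set. It was 0.71 for the endothelial receptor Kdr, 0.48 for thrombomodulin (Thbd), 0.58 for Cxcl12 and 1.05 for Egln3, which were lower on the Western diet in the first set.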

How the results depend on the processing

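Counts of calls moved with the processing. The genes named as called or of smallest p in the averaged, male, female and between-sex contrasts and in the first number set kept their direction under the alternatives run; members named only from lists were not followed gene by gene. Without the libraries over 10 CPM of Myl7, 13 of 34 interferon genes and 4 of 15 MHC class I genes lay above 0. Averaged over the sexes, the count of 0 became 25 with no filter on low counts, 18 by DESeq2, 8 with clock components as terms, and 1 by limma-voom, with a coefficient for each sex, condition and number set, or with all 80 libraries. It stayed at 0 under the other alternatives and lay between 0 and 4 with 1 library left out, the 4 (Gm29480, Gm42941, Gm15903 and Srcap) coming without male mixed field replicate 10. In males the 5 calls became 22 with no filter, 3 with a mean of at least 1 CPM, 25 by DESeq2, 21 by limma-voom, 31 with the fuller coefficients, 18 with all 80 libraries, 13 with the Rn18s-rs5 share, 39 with the clock components, and 0 without the number set terms (1020 genes at an unadjusted p under 0.05) or without the libraries over 10 CPM of Myl7 (491 genes). With 1 library left out they lay between 0 and 16. Females stayed at 0, or 0 to 1 with 1 library left out (Per2, without female Western replicate 5), and the difference between the sexes at 0 throughout. In the first number set the 391 calls became 799 with no filter, 604 by DESeq2, 657 with the clock components and 199 from that set alone, and lay between 163 and 1017 with 1 library left out. In the second set the 0 became 4 with no filter (Fbn1, Bmal1, Sbk3 and Myl4) and 4 by DESeq2. The 14 genes that changed between the sets became 308 with no filter, 150 by DESeq2, 8 by limma-voom and 87 with the clock components, and lay between 9 and 207 with 1 library left out. Without the number set terms, the counts against sham were 63 and 3 for the Western diet in males and females and 11 for the mixed field in males; without the libraries over 10 CPM of Myl7 in any group, an alternative chosen after the values were seen, they were 0, 11 and 0. The cause of these shifts was not tested. The median over all genes was -0.0093 with TMM, -0.0083 with DESeq2's size factors and -0.0149 with no scaling factors. No paired analysis was possible because the groups compared share no title numbers. The number sets and the hour of collection, which the labels do not explain, limit all comparisons, as does the spread between libraries for differences as small as those of the interferon list.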
